A study of Mus musculus with 20 samples.

Results

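The genes of blood coagulation and fibrinolysis were followed in mouse liver as a list of 32 named members, with the brightest detected probe standing for the gene. A gene-specific probe was given to a gene by its RefSeq transcript. Where that failed, the gene name on the array was used, as a symbol or synonym. Of the 32 members, 31 were measured, out of 21998 genes measured in all. They were fibrinogen chains (Fga, Fgb, Fgg) and F13b, the vitamin K-dependent proteins F2, F7, F9, F10, Proc, Pros1 and Proz, the cofactors F5 and F8 and the initiator F3, the contact system genes F12, F11, Klkb1, Kng1 and Kng2, the inhibitors Serpinc1, Serpind1, Tfpi and Pzp, the fibrinolysis genes Plg, Plat, Serpinf2, Cpb2 and Hrg, and the vessel wall genes Vwf, Thbd and Procr. Plau, the urokinase plasminogen activator, was the member not measured: its probe was well above background on 0 of 20 arrays. The members had 43 probes, of which 42 were kept, and 10 members had several kept probes.

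Most clotting factors are made and secreted by hepatocytes as inactive precursors. A cascade of proteases formed from them leads to thrombin, which cuts fibrinogen into fibrin, and plasmin, made from plasminogen, dissolves the fibrin again. Antithrombin, protein C with protein S, and tissue factor pathway inhibitor hold the cascade in check. Oral estrogen, which reaches the liver first, is known for altering the plasma levels of clotting factors and for raising the risk of thrombosis.

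The ovaries of all animals were removed at 4 weeks, and a single gavage followed at 9 weeks of age. Livers were taken 4 hours after it, under anesthesia with xylazine at 10 mg/kg and ketamine at 100 mg/kg. The wild-type placebo group (ERa+/+) received castor oil with 5% ethanol and the wild-type E2 group estradiol (E2) at 1 mg/kg. The null placebo and null E2 groups (ERa-/-, homozygous null for estrogen receptor alpha) received the same 2 treatments. Each group held 5 animals with 1 array each, 20 arrays in all, and every control animal shared the ovariectomy, the gavage and the anesthesia. The labels do not describe the null allele further and tie the loss to no cell type. A level below is the log2 of a probe's processed intensity minus the 75th percentile of its array, so levels of different genes were not set against each other as amounts of transcript.

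The genotype labels were checked on Esr1, the gene of the receptor. Its levels ran from -0.04 to 1.02 in the 10 wild-type animals and from -2.16 to -0.93 in the 10 nulls, with no overlap, and the difference was -2.12 ± 0.16 (SE, limma, adjusted p = 1.25e-06). Where the deletion lies in the gene was unstated, so the probe may lie outside it. Spots well above background made up 51.6% of the array of null placebo animal 1, the lowest share. Wild-type E2 animal 1 had the highest share, 70.0%, and the next highest was 61.3%. All 6 hepatocyte markers were well above background on all 20 arrays, and their mean level ran from 8.23 to 8.92. The erythroid markers (5 genes) averaged 2.75 to 3.15 in the wild-type placebo animals and 3.18 to 3.98 in the other 15, so that the wild-type placebo group stood apart without overlap. Null placebo animal 1 stood apart in the clotting genes themselves: it was the highest of the 20 animals for 16 of 31 members, and its median deviation from its group mean was 0.21 over the members and 0.06 over all genes.

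The regions upstream of 5 members described in detail below are shown. They are the fibrinogen chain genes, which varied together between animals, F12, a contact factor known as estrogen-responsive, and Serpinf2. Serpinf2 was the 1 of 31 members whose genotype groups did not overlap under E2, beside 2.5% of all genes. Neither F12 nor Serpinf2 had an adjusted p under 0.05 in any contrast of the main fit. Each region is the 250 bases before the annotated start, 5′ to 3′ on the gene's strand, from RefSeq on GRCm38.p6. Capitals mark 4 short motifs searched on both strands: the half-site of the estrogen response element (GGTCA), a motif of interleukin 6 response elements (CTGGGA), an HNF1 half-site (GTTAAT) and a C/EBP motif (TTGCNNAA).
Fga (chr3:83025903-83026152, plus strand): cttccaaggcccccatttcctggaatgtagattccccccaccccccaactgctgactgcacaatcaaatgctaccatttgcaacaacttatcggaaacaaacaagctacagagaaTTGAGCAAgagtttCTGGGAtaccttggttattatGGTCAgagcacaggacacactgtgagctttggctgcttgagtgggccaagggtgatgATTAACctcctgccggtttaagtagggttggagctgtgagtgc
Fgb (chr3:83049864-83050113, minus strand): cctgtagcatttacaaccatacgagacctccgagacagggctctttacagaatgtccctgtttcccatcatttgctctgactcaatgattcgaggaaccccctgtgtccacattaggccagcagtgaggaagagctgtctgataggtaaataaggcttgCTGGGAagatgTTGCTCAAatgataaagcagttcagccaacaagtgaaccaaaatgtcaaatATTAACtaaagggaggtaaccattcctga
Fgg (chr3:83007474-83007723, plus strand): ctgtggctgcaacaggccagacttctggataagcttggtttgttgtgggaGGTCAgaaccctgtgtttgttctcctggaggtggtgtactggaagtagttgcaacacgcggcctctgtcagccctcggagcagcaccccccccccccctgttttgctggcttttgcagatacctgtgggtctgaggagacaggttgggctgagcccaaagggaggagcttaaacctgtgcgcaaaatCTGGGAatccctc
F12 (chr13:55426805-55427054, minus strand): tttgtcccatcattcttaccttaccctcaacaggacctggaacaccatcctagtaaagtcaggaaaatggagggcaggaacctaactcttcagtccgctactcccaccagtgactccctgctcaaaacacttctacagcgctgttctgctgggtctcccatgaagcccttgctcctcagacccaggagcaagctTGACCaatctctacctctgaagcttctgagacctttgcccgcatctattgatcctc
Serpinf2 (chr11:75439502-75439751, minus strand): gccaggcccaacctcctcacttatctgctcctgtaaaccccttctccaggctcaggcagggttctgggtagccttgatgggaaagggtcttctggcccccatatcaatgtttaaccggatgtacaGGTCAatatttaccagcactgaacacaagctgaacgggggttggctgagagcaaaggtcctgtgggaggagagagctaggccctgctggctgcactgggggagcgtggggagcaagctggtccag

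Promoters were found for 25 of the 32 members (26 sequences). Of these 26, 14 (53.8%) held the estrogen half-site, against 35.2% of all 32851 promoters of that length, and 0 held the full palindrome GGTCANNNTGACC, which contains that half-site on both strands, against 0.0639% of all. CTGGGA was in 10 of 26 (38.5%) against 27.0% of all, GTTAAT in 5 (19.2%) against 6.43%, and TTGCNNAA in 8 (30.8%) against 9.56%. All 3 fibrinogen promoters held CTGGGA, those of Fga and Fgb held the HNF1 and C/EBP motifs too, and the half-site was in Fga and Fgg. F12 and Serpinf2 held the half-site alone of these motifs, F12 with its nearest base 52 bases before the start and Serpinf2 121 bases before it. A match describes the letters in the window and was not tested as a binding site.

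The probes were 60 bases long. For the genes on which most of the text turns, their first 30 bases are shown, with the probe's place on mm9 being chr3:82835678-82835737 for Fga, chr3:82846334-82846393 for Fgb, chr3:82818825-82818884 for Fgg, chr11:75245252-75245311 for Serpinf2, chr8:46355052-46355111 for Klkb1 and chr13:55519456-55519515 for F12. Fgg, Fga and Fgb thus lie beside each other on chromosome 3.
Fga probe: caaagaatttggcagtaagacccattctga
Fgb probe: tggaagggatcgtggtactcaatgaggagg
Fgg probe: ctatactatttttcctatgggacaatggac
Serpinf2 probe: cctttagctcccaagactcttttgtaaagt
Klkb1 probe: agatatagttgctgaagacagcgttttgct
F12 probe: tgtacacagacgtggccaactacctggctt

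Oral E2 for 4 hours was compared with placebo first in the wild types, where the receptor is present. Here 0 of 31 members passed the adjusted threshold of 0.05 in limma, while 70 of 21998 genes did (0.318%). Plat (tissue plasminogen activator) stands outside the counts of unadjusted p that follow, while the other counts and the medians include it. Its only probe was kept through wild-type E2 and null placebo livers, the groups in which it read high. Its differences are thus a description and support nothing. Of the other 30 members, 0 had an unadjusted p under 0.05, against 8.28% of all genes. The median difference of the members was -0.02, against 0 over all genes, and single members ran from -0.18 (Fga) to 0.64 (Thbd). The smallest adjusted p of these 30 was 0.673, for Klkb1. For 26 of 31 members the 95% interval of the difference lay within 1.5-fold in either direction, which held for 65.9% of all genes. In this and the later counts of intervals, the members were not set against genes of like brightness. The 5 members whose interval reached further were F3, F8, Plat, Thbd and Vwf.

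In the nulls E2 left 0 of 31 members past the threshold, and 1 of 21998 genes passed it (0.00455%). With Plat set aside, 0 of 30 had an unadjusted p under 0.05, against 6.06% of all genes. Of the 31 members 25 lay below 0 and 6 above, with a median of -0.07 against -0.01 over all genes. That lean rested on 1 animal: without null placebo animal 1, 16 lay below 0 and 15 above, with a median of -0.02 against 0.01. Under quantile normalization 20 lay below 0, with a median of -0.02. The interval lay within 1.5-fold for 26 members and for 68.3% of all genes, with F3, F8, Plat, Tfpi and Thbd the exceptions. The difference between the E2 effects, wild types minus nulls, passed for 0 of 31 members and for 36 genes (0.164%). With Plat set aside, 1 of 30 (Klkb1, adjusted p = 0.67) had an unadjusted p under 0.05, against 7.39% of all genes. The interval of this difference lay within 1.5-fold for 21 of 31 members and for 47.1% of all genes, and it reached further for F3, F8, F11, Fga, Klkb1, Plat, Procr, Tfpi, Thbd and Vwf.

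**Figure D1:**
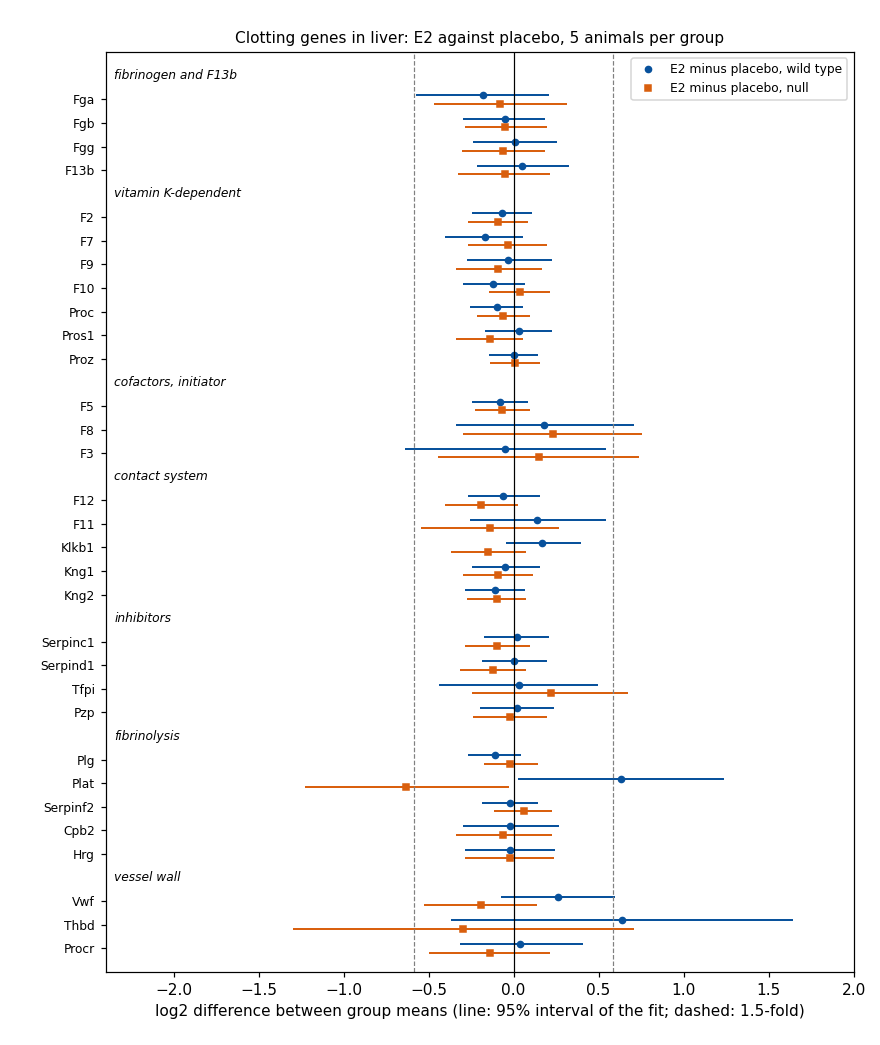
Log2 difference between E2 and placebo for the 31 members by role, in wild types (circles) and nulls (squares), 5 animals per group, with the 95% interval of the fit as lines and 1.5-fold as dashed lines. Most intervals cross 0 and stay between the dashed lines; Plat, whose probe was kept through the groups in which it read high, lies at 0.63 in wild types and -0.63 in nulls.

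Null and wild-type livers were compared within each treatment. Under placebo 0 of 31 members passed, against 16 genes in all (0.0727%), and with Plat set aside 2 of 30 had an unadjusted p under 0.05, against 10.1% of all genes. These were Pros1 and Serpinf2, with higher means in the nulls. The members leaned upward, with 24 above 0 and a median of 0.06 against 0.01 over all genes. Without null placebo animal 1 there were 17 above 0, the median was 0 and no member had an unadjusted p under 0.05. Under E2 0 of 31 members passed, against 102 genes (0.464%), and with Plat set aside 2 of 30 had an unadjusted p under 0.05, against 9.63%, with a difference of 0.26 for Serpinf2 and -0.31 for Klkb1. The smallest adjusted p was 0.255, for Serpinf2. Averaged over both treatments, 0 of 31 members passed and 153 genes did (0.696%), 1 member (Serpinf2) had an unadjusted p under 0.05, against 12.9% of all genes, and the smallest adjusted p was 0.069. The interval lay within 1.5-fold for 29 of 31 members and for 82.5% of all genes, the exceptions being F3 and Thbd.

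**Figure D2:**
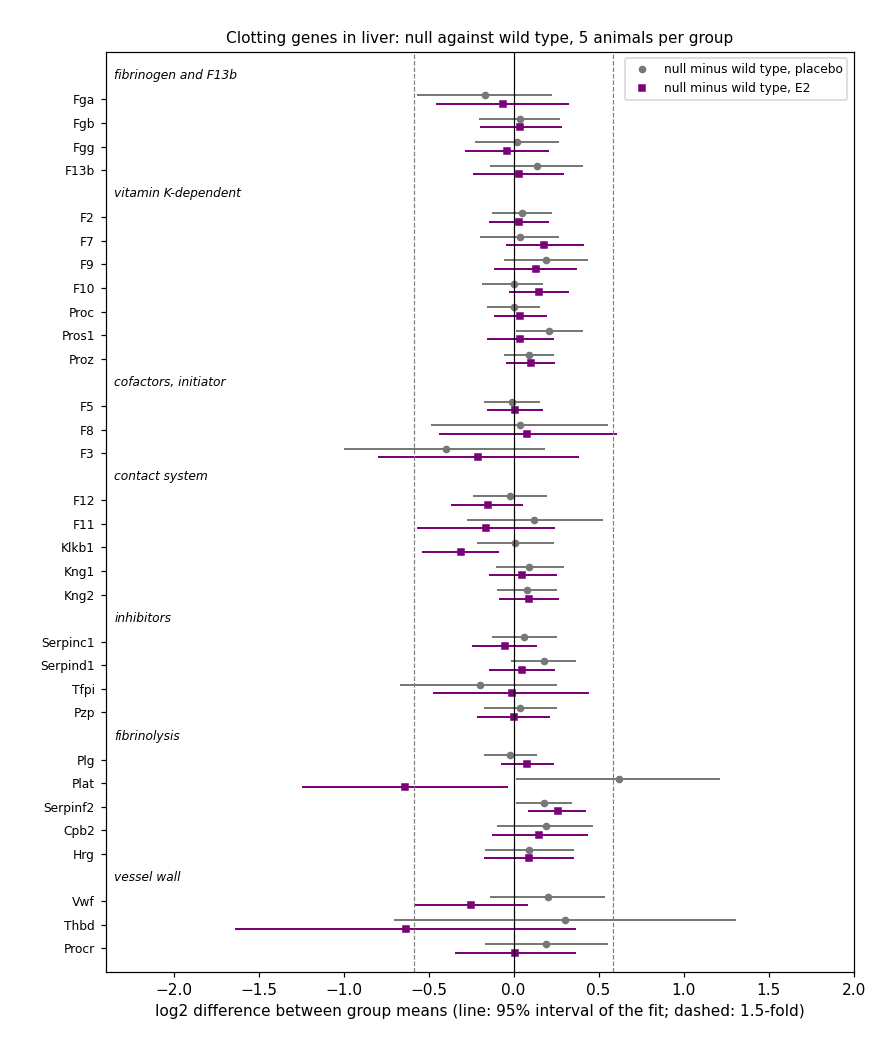
Log2 difference between null and wild-type livers for the 31 members by role, under placebo (circles) and under E2 (squares), 5 animals per group, with the 95% interval of the fit as lines and 1.5-fold as dashed lines. Serpinf2 lies above 0 under both treatments (0.18 and 0.26), and Klkb1 lies below 0 under E2 (-0.31).

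Fibrinogen, the precursor of fibrin, is a dimer of 3 chains encoded by Fga, Fgb and Fgg. Fga read 6.74, 6.94, 6.74, 6.59 and 6.35 in the wild-type placebo animals and 6.69, 6.64, 6.45, 6.49 and 6.19 in the wild-type E2 animals. In the nulls it read 7.15, 5.85, 6.84, 6.45 and 6.23 under placebo and 6.3, 6.55, 6.34, 6.63 and 6.31 under E2. Its groups overlapped, and the null placebo group held both the top (animal 1) and the bottom (animal 2) of all 20. E2 minus placebo was -0.18 ± 0.18 (SE, limma, adjusted p = 0.823) in wild types and -0.08 ± 0.18 (0.979) in nulls, or 0.08 in nulls without null placebo animal 1. Fgb read 10.22, 10.1, 10.09, 10.11 and 9.79 in wild-type placebo and 10.14, 10.15, 10.13, 9.86 and 9.76 in wild-type E2 livers, then 10.43, 9.87, 10.24, 9.92 and 10.04 in null placebo and 9.98, 10.16, 10.03, 10.1 and 9.99 in null E2 livers. Fgg read 10.02, 9.81, 9.8, 9.85 and 9.51 in wild types under placebo, 9.86, 9.96, 9.95, 9.67 and 9.63 under E2, and in nulls 10.16, 9.59, 9.92, 9.61 and 9.84 under placebo and 9.73, 9.95, 9.8, 9.71 and 9.65 under E2. Both overlapped in all groups. E2 minus placebo in wild types was -0.05 ± 0.11 for Fgb (SE, limma, adjusted p = 0.928) and 0.01 ± 0.11 for Fgg (0.986), with 95% intervals of -0.29 to 0.18 and -0.23 to 0.25. The second Fga probe, slightly dimmer, gave -0.01 ± 0.22 in wild types. F13b, the carrier subunit of the fibrin cross-linking enzyme, had group means of 4.67 ± 0.06, 4.72 ± 0.17, 4.80 ± 0.33 and 4.75 ± 0.09 (SD, n = 5, in the order wild-type placebo, wild-type E2, null placebo, null E2).

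The fibrinogen transcripts varied together between animals. Over the 20 deviations from the group means, Fgb and Fgg had r = 0.94 and rho = 0.92 (permutation within groups, 2-sided, p = 1e-05, the smallest it can give, adjusted 3e-05 over 3 pairs). Fga and Fgb had r = 0.83 and rho = 0.81 (permutation p = 0.00018, adjusted 0.00027), and Fga and Fgg r = 0.72 and rho = 0.65 (permutation p = 0.0043, adjusted 0.00434). Without the 2 animals farthest from the median of the first gene, r was 0.90, 0.76 and 0.55, and without null placebo animal 1 it was 0.92, 0.76 and 0.60. Within the 3 slides that held 5 or 6 arrays, r was 0.82 to 1.0 for Fgb and Fgg, 0.75 to 0.90 for Fga and Fgb, and 0.39 to 0.89 for Fga and Fgg. Other abundant liver transcripts varied with them, in pairs chosen after the values were seen (16 in all). Alb, the albumin gene, had r = 0.79 and rho = 0.76 with Fgb (permutation p = 0.00015, adjusted 0.0008 over the 16 pairs), r = 0.83 with Fgg (permutation p = 5e-05, adjusted 0.0004) and r = 0.53 with Fga (permutation p = 0.026, adjusted 0.0303). Saa1, an acute-phase gene, had r = 0.78 and rho = 0.78 with Fgb (permutation p = 0.00073, adjusted 0.00176), r = 0.72 with Fgg and r = 0.72 with Fga. Within slides r was 0.63 to 0.87 for Saa1 and Fgb, 0.13 to 0.88 for Saa1 and Fgg and 0.68 to 0.85 for Saa1 and Fga. Scaling by the array median lowered the r of Saa1 and Fgb to 0.40 (permutation p = 0.074). The values compared in each pair come from the same array, and its part in the correlation was not tested beyond that. Saa1 itself spread widely within every group, from 6.79 to 10.44 over the 20 animals, with group means of 8.91, 9.07, 8.76 and 8.89. Its level also went with the animal numbers in the labels, given with Thbd below, and their part in these correlations was not tested.

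**Figure D3:**
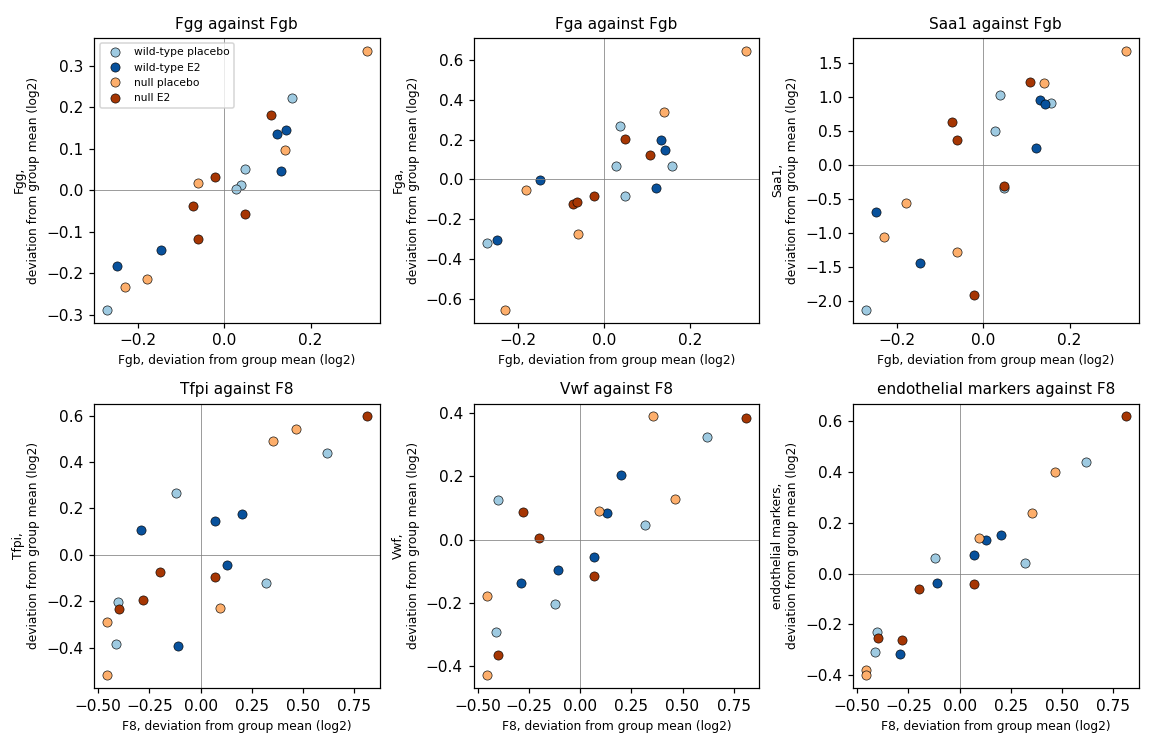
Deviation of each animal from its group mean (log2, 1 point per animal, coloured by group) for pairs of genes: Fgg, Fga and Saa1 against Fgb, and Tfpi, Vwf and the mean of 12 endothelial markers against F8. Points rise together in all 6 panels, with r from 0.78 to 0.96.

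Among the vitamin K-dependent proteins, F2 (prothrombin, the precursor of thrombin) read 9.13, 8.99, 9.02, 9.08 and 8.85 in wild-type placebo and 8.94, 8.97, 9.02, 8.94 and 8.86 in wild-type E2 livers. In nulls it read 9.36, 8.98, 9.03, 8.91 and 9.04 under placebo and 8.94, 8.99, 9.08, 8.89 and 8.97 under E2. The groups overlapped and null placebo animal 1 was the highest. E2 minus placebo for F2 was -0.07 ± 0.08 in wild types (SE, limma, adjusted p = 0.839) and -0.09 ± 0.08 in nulls (0.916), or -0.02 in nulls without that animal. F7, which starts the cascade with tissue factor, read 4.27, 4.36, 4.35, 4.14 and 4.47 in wild-type placebo, 4.02, 4.08, 4.16, 4.35 and 4.13 in wild-type E2, 4.53, 4.33, 4.26, 4.31 and 4.37 in null placebo and 4.14, 4.2, 4.24, 4.27 and 4.78 in null E2 livers. Of the wild-type E2 values 4 lay at or below 4.16 and null E2 animal 5 was high, with overlap. The E2 difference was -0.17 ± 0.11 in wild types (SE, adjusted p = 0.68), -0.15 ± 0.10 by the second F7 probe, and -0.03 ± 0.11 in nulls. F9, the factor lacking in hemophilia B, read 4.29, 4.34, 4.22, 4.17 and 4.04 in wild-type placebo, 4.15, 4.02, 4.4, 4.21 and 4.15 in wild-type E2, 4.9, 4.29, 4.38, 4.24 and 4.21 in null placebo and 4.47, 4.2, 4.23, 4.26 and 4.43 in null E2 livers. Null placebo animal 1 was high at 4.9. Null minus wild type under placebo was 0.19 ± 0.12 (SE, adjusted p = 0.602), and 0.07 without that animal.

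Pros1, protein S, the cofactor of activated protein C, read 2.23, 2.34, 2.39, 2.39 and 2.38 in wild-type placebo and 2.42, 2.41, 2.31, 2.35 and 2.38 in wild-type E2 livers. The nulls read 2.88, 2.33, 2.54, 2.43 and 2.59 under placebo and 2.2, 2.46, 2.46, 2.56 and 2.4 under E2. Null placebo animal 1 was again the highest, and the groups overlapped. Null minus wild type under placebo was 0.21 ± 0.09 (SE, limma, adjusted p = 0.432) and it was 0.13 without that animal. F10, Proc and Proz were steady. F10 had group means from 8.15 to 8.30, Proc (protein C) from 8.14 to 8.23, and Proz, the cofactor of a factor Xa inhibitor, from 7.93 to 8.03. Proz had the smallest spread within groups of any member, an SD of 0.08, against 0.23 for the median gene. The second F10 probe, for another transcript, gave 0.51 ± 0.24 for E2 in nulls where the chosen probe gave 0.04 ± 0.08; its adjusted p over all probes was 0.827.

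The cofactors differed in their spread. F5 (factor V) was steady, with group means from 5.94 to 6.02 and an SD within groups of 0.10. F8 (factor VIII) had group means of -1.20 ± 0.46, -1.01 ± 0.20, -1.16 ± 0.44 and -0.93 ± 0.48 (SD, n = 5, in the order used for F13b) and an SD within groups of 0.41. F3, tissue factor, the initiator of the cascade, had 1.13 ± 0.39, 1.08 ± 0.47, 0.73 ± 0.60 and 0.87 ± 0.37 (SD, n = 5). Null placebo animal 1 was lowest of all for F3 at -0.28, and without it null minus wild type under placebo was -0.15 in place of -0.40. By the chosen probes, no contrast of F3, F5 or F8 had an unadjusted p under 0.05. A second, dimmer F8 probe, above background on 18 arrays, gave 0.69 ± 0.31 for E2 in wild types (SE, adjusted p = 0.574 over all probes), where the chosen probe gave 0.18 ± 0.25, and -0.67 ± 0.31 for null minus wild type under E2 (adjusted p = 0.519), where the chosen probe gave 0.08 ± 0.25. Both values of the second probe had an unadjusted p under 0.05.

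F8, known to be made by the endothelial cells of the liver, varied with the endothelial markers. The mean of 12 markers ran from 0.46 to 1.21, 0.63 to 1.1, 0.30 to 1.1 and 0.46 to 1.34 in the 4 groups. All 12 were well above background on all 20 arrays. In limma 0 of 12 passed the threshold in any of the 6 contrasts, against 0.00455% to 0.696% of all genes. At an unadjusted p under 0.05 there were 0 of 12, against 6.06% to 12.9% of all genes. Without null placebo animal 1, there was 1 of 12 for E2 in wild types (9.3% of all genes). In that fit 11 of 12 markers lay below 0 for null minus wild type under E2, with a median of -0.22. Over the 20 deviations from group means, F8 and the marker mean had r = 0.96 and rho = 0.95 (permutation p = 1e-05, the smallest it can give, adjusted 0.00016 over the 16 pairs chosen after the values were seen). Without the 2 farthest animals r was 0.93, within slides it was 0.94 to 0.98, and under 4 other scalings or values it was 0.95 to 0.97. Tfpi and Vwf followed the same markers with r = 0.82 and r = 0.78 and rho = 0.78 for both (permutation p = 0.00047 and 0.00085, adjusted 0.00176). Without the 2 farthest animals these were 0.72 and 0.66, and within slides they ran from 0.48 to 0.95 and from 0.76 to 0.92. F8 and Tfpi had r = 0.80, F8 and Vwf r = 0.79. Thbd and Procr, also genes of the vessel wall, did not follow the markers in this measure, with r = -0.01 (permutation p = 0.97) and 0.22 (permutation p = 0.33). In a piece of whole liver, fewer cells of a type and less RNA per cell cannot be told apart.

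In the contact system, F12 (Hageman factor, which starts the intrinsic route) read 7.63, 7.55, 7.7, 7.56 and 7.13 in wild-type placebo and 7.5, 7.44, 7.36, 7.46 and 7.53 in wild-type E2 livers. The nulls read 7.5, 7.46, 7.67, 7.41 and 7.43 under placebo and 7.49, 7.34, 7.38, 7.21 and 7.11 under E2. The groups overlapped, wild-type placebo animal 5 was low, and the lowest value lay in the null E2 group. E2 minus placebo for F12 was -0.06 ± 0.10 in wild types (SE, limma, 95% interval -0.26 to 0.15, adjusted p = 0.912) and -0.19 ± 0.10 in nulls (interval -0.40 to 0.02, adjusted p = 0.824). Klkb1, plasma prekallikrein, read 5.87, 5.94, 5.98, 6.04 and 5.98 in wild-type placebo and 5.87, 6.06, 6.21, 6.32 and 6.22 in wild-type E2 livers, and in nulls 6.24, 5.81, 5.82, 6.16 and 5.81 under placebo and 5.83, 5.78, 5.97, 5.91 and 5.62 under E2. Of the wild-type E2 animals 4 read higher than all wild-type placebo animals, and 1 read the same as the lowest. Null minus wild type under E2 was -0.31 ± 0.10 (SE, adjusted p = 0.317), and the E2 effects differed by 0.32 ± 0.15 (adjusted p = 0.67), or by 0.25 without null placebo animal 1. Within slides 1, 2 and 4 the genotype difference under E2 was -0.35, -0.24 and -0.44. F11, which lies beside Klkb1 on chromosome 8, varied with it (r = 0.63, rho = 0.67, permutation p = 0.012, adjusted 0.0153 over the same 16 pairs), but without the 2 farthest animals r was 0.43. Its group means ran from 3.85 to 4.01. Kng1 and Kng2, the kininogens, had group means from 9.82 to 9.96 and from 7.37 to 7.56. The dimmer Kng1 probe, for another transcript, gave -0.20 ± 0.09 for E2 in wild types (adjusted p = 0.554 over all probes) where the chosen probe gave -0.05 ± 0.09.

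Serpinc1, antithrombin, the main inhibitor of thrombin and factor Xa, read 9.92, 9.74, 9.79, 9.89 and 9.73 in wild-type placebo and 9.87, 9.94, 9.95, 9.71 and 9.69 in wild-type E2 livers. In nulls it read 10.02, 9.76, 9.93, 9.71 and 9.96 under placebo and 9.82, 9.93, 9.9, 9.7 and 9.55 under E2. The groups overlapped throughout. E2 minus placebo for Serpinc1 was 0.02 ± 0.09 in wild types (SE, limma, 95% interval -0.17 to 0.20, adjusted p = 0.969) and -0.10 ± 0.09 in nulls (0.92), or -0.06 in nulls without null placebo animal 1. Serpind1, heparin cofactor II, read 7.45, 7.34, 7.34, 7.48 and 7.42 in wild types under placebo, 7.45, 7.39, 7.45, 7.41 and 7.35 under E2, and in nulls 7.98, 7.45, 7.54, 7.58 and 7.37 under placebo and 7.57, 7.44, 7.46, 7.41 and 7.42 under E2. Its highest value was that of null placebo animal 1, and null minus wild type under placebo was 0.18 ± 0.09 (SE, adjusted p = 0.513), or 0.08 without that animal. Tfpi, the inhibitor of the tissue factor route, had group means from -1.19 to -0.96 with SDs of 0.24 to 0.48, and its 3 probes gave 0.22, 0.26 and -0.40 for E2 in nulls, each with an SE of 0.22 or 0.25. Pzp, a broad protease inhibitor of the macroglobulin family, had group means from 8.96 to 9.00.

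In fibrinolysis, Plg (plasminogen) read 8.28, 8.23, 8.3, 8.21 and 8.24 in wild-type placebo and 8.02, 8.26, 8.24, 8.2 and 7.98 in wild-type E2 livers, 8.4, 8.1, 8.28, 8.16 and 8.23 in null placebo and 8.26, 8.23, 8.28, 8.16 and 8.16 in null E2 livers. Animals 1 and 5 of the wild-type E2 group were the lowest of all 20. The E2 difference was -0.11 ± 0.07 in wild types (SE, limma, adjusted p = 0.69) and -0.02 ± 0.07 in nulls (0.989). Serpinf2, alpha 2-antiplasmin, the main inhibitor of plasmin, read 7.9, 7.87, 7.77, 7.78 and 8.02 in wild-type placebo and 7.86, 7.91, 7.85, 7.91 and 7.7 in wild-type E2 livers. It read 8.29, 7.92, 8.08, 8.03 and 7.91 in null placebo and 8.01, 8.17, 8.11, 8.12 and 8.09 in null E2 livers. All 5 null E2 animals were above all 5 wild-type E2 animals, which made 1 of 31 members without overlap, near the 2.5% of all genes without overlap in this contrast. For E2 in wild types, E2 in nulls and genotype under placebo 0 of 31 members were without overlap, against 1.51%, 0.81% and 1.85% of all genes. Under placebo the groups overlapped through wild-type placebo animal 5. Null minus wild type was 0.26 ± 0.08 under E2 (SE, adjusted p = 0.255), 0.18 ± 0.08 under placebo (adjusted p = 0.432) and 0.22 ± 0.05 averaged (adjusted p = 0.069), or 1.16-fold. The averaged value missed the threshold. It passed in 1 of 33 alternatives, without wild-type placebo animal 5, at 0.24 with an adjusted p of 0.0429, and lay between 0.17 and 0.27 in all 33, with adjusted p up to 0.599. Without null placebo animal 1 it was 0.19 averaged and 0.12 under placebo. Within slides the difference was 0.1, 0.25 and 0.47 under E2 (slides 1, 2 and 4) and 0.24, 0.30 and 0.08 under placebo (slides 1 to 3).

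Plat, tissue plasminogen activator, was dim: it was well above background on 2, 5, 5 and 3 of 5 arrays in wild-type placebo, wild-type E2, null placebo and null E2 livers, so that its probe passed the filter through the 2 groups in which it was high. Its differences are given without a test, and they rest in part on values at background. It read -4.97, -4.03, -4.89, -4.4 and -4.38 in wild types under placebo and -2.71, -3.83, -4.23, -4.2 and -4.56 under E2. In nulls it read -3.36, -4, -3.9, -4.34 and -4 under placebo and -4.51, -4.96, -4.04, -4.71 and -4.51 under E2. Wild-type E2 animal 1 and null placebo animal 1 were high, and every pair of groups overlapped. E2 minus placebo was 0.63 ± 0.28 in wild types (SE, n = 5) and -0.63 ± 0.28 in nulls, and the effects differed by 1.26 ± 0.40. Null minus wild type was 0.62 ± 0.28 under placebo. Without null placebo animal 1 the E2 difference in nulls was -0.49, that between the effects 1.12, and null minus wild type under placebo 0.48. Over all alternatives the difference between the effects ran from 0.33 to 1.42. Within slides 1 and 2, which held all groups, it was 0.85 and 1.31. Beside it, the median difference of the 5 erythroid markers was 0.49 for E2 in wild types and -0.16 in nulls. Without null placebo animal 1 it was 0.02 in nulls, with 3 of 5 above 0. The 7 measured platelet markers averaged -2.95 to -2.88, -2.89 to -2.07, -2.83 to -2.69 and -2.98 to -2.46 in the 4 groups, with 4 of 7 well above background on all arrays. The part of either list in Plat was not tested. Cpb2, the inhibitor TAFI, had group means of 7.28, 7.26, 7.47 and 7.41, and Hrg, histidine-rich glycoprotein, of 8.04, 8.02, 8.13 and 8.11. Null placebo animal 1 was the highest of all 20 for Cpb2, at 7.98.

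Among vessel wall genes, Vwf, which carries factor VIII and binds platelets, read 1.34, 1.76, 1.43, 1.96 and 1.68 in wild-type placebo and 1.8, 1.98, 1.76, 1.84 and 2.1 in wild-type E2 livers. In nulls it read 1.41, 2.23, 1.93, 1.66 and 1.97 under placebo and 1.65, 1.73, 1.28, 2.03 and 1.53 under E2. The groups overlapped. E2 minus placebo was 0.26 ± 0.16 in wild types (SE, limma, adjusted p = 0.676) and -0.19 ± 0.16 in nulls (0.901), and the effects differed by 0.45 ± 0.22 (adjusted p = 0.679). Without null placebo animal 1 these were -0.30 in nulls and 0.56 between the effects. A second, dimmer Vwf probe, well above background on 17 arrays, gave 0.68 ± 0.34 in wild types (SE, limma, adjusted p = 0.616 over all probes). It gave -0.09 ± 0.34 in nulls and 0.78 ± 0.48 between the effects (adjusted p = 0.783). Beside Vwf, 12 of 12 endothelial markers lay above 0 for E2 in wild types, with a median difference of 0.11, and 7 of 12 in nulls, with 0.09. Without null placebo animal 1, 2 of 12 markers lay above 0 in nulls, with a median of -0.06. For the difference between the effects 12 of 12 markers then lay above 0, with a median of 0.25. Their part in Vwf was not tested. Thbd, thrombomodulin, the receptor that turns thrombin toward protein C, read 0.86, 0.93, 0.55, 0.16 and 0.1 in wild-type placebo and 2.55, 2.17, 0.11, 0.55 and 0.41 in wild-type E2 livers, and in nulls 1.76, 0.23, 2.01, 0.11 and -0.01 under placebo and 1.01, -0.12, 0.15, 0.89 and 0.69 under E2. The high values were those of animals 1 and 2 in the wild-type E2 group and of 1 and 3 in the null placebo group, and all others lay at or below 1.01. All 4 carried animal numbers below 750 in the labels; such numbers belong to 0, 2, 3 and 2 animals of the groups in the same order, and the part of that split in Thbd was not tested. Its SD within groups, 0.80, was the largest of the members. E2 minus placebo in wild types was 0.64 ± 0.48 (SE, adjusted p = 0.742). The wild-type E2 animals numbered 750 or above averaged 0.36, beside 0.52 in the wild-type placebo group. Thbd followed Saa1 with r = 0.66 and rho = 0.62 (permutation p = 0.0038, adjusted 0.00554 over the 16 pairs). Saa1 split on the same numbers. Animals below 750 averaged 10, 9.37 and 9.81 for Saa1 in the wild-type E2, null placebo and null E2 groups. Those at 750 or above averaged 8.45, 7.84 and 8.27. In null E2 livers Thbd did not split that way, with 0.44 below 750 and 0.58 at or above. The part of the split in the correlation was not tested. Procr, the endothelial protein C receptor, had group means of -2.04, -2.00, -1.85 and -1.99.

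**Figure D4:**
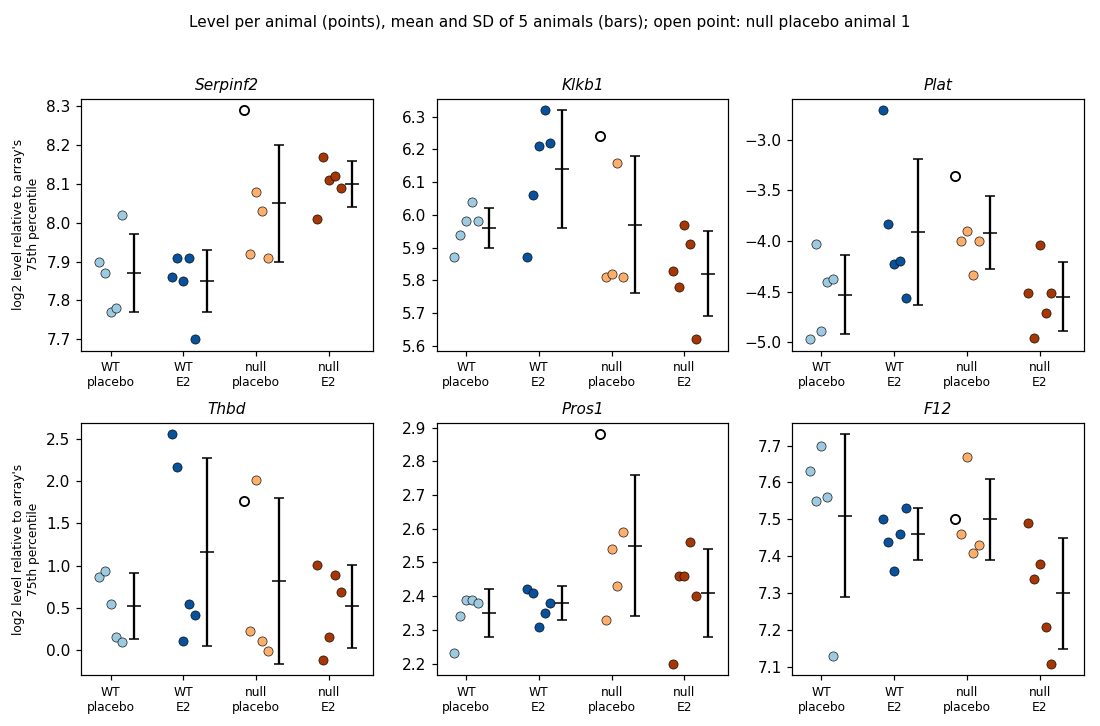
Log2 level relative to the array's 75th percentile in each animal (points) with the mean and SD of 5 animals (bars), for 6 members in the 4 groups; the open point is null placebo animal 1. Serpinf2 is higher in all null E2 than in all wild-type E2 animals, while every other panel shows overlap, and Thbd has 4 animals at 1.76 or above.

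Most members varied little between animals of a group. The SD within groups was below that of the median gene (0.23) for 22 of 31 members, and the 9 above it were Vwf, Procr, Fga, F11, Tfpi, F8, F3, Plat and Thbd. Apart from Fga (mean level 6.52), the probes of these 9 were among the dimmer of the members, from -4.23 (Plat) to 3.92 (F11). Pros1 was dim too (2.42), with an SD of 0.13. The spread of the members was not set against that of genes of like brightness. Null placebo animal 1 had the highest value of all 20 animals for all fibrinogen chains, and for F13b (5.36), F9 (4.90), Kng2 (7.89) and Serpind1 (7.98) among others, and the lowest for F3 (-0.28).

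**Figure D5:**
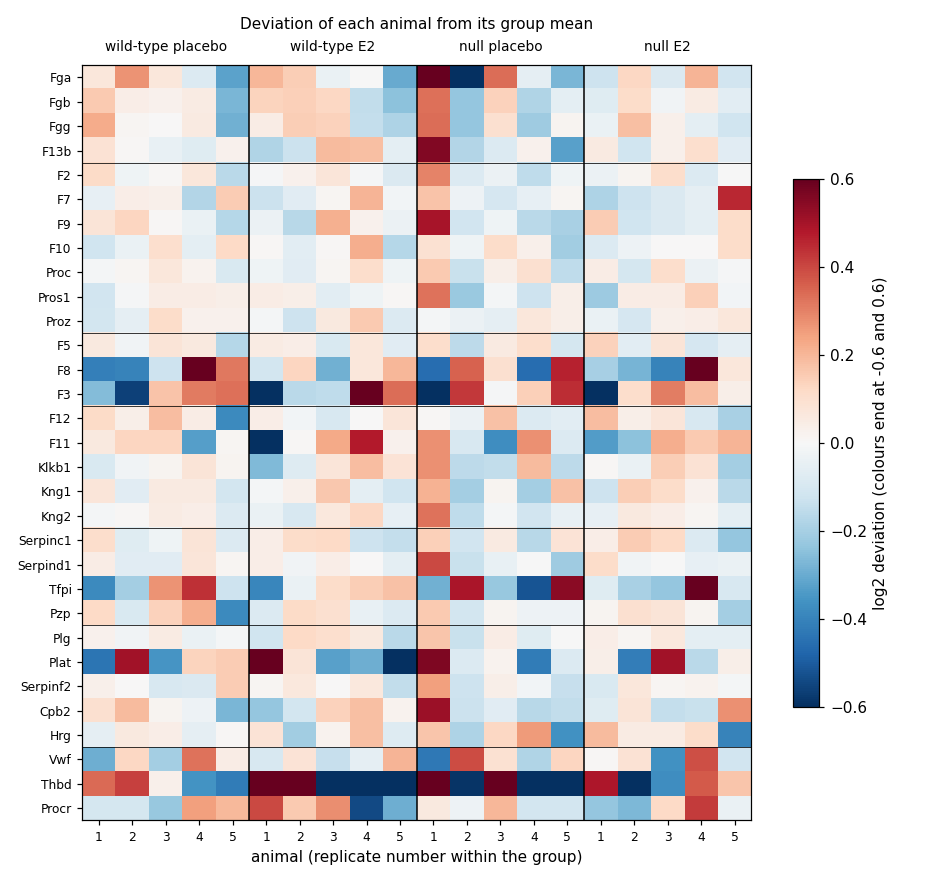
Deviation of each animal (columns) from its group mean for the 31 members (rows, by role), in log2, with colours that end at -0.6 and 0.6. The column of null placebo animal 1 is mostly above 0 (median 0.21), F8, Tfpi and Vwf share a pattern, and Thbd varies most.

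The other genes of the pathway, 33 measured of 36 listed, are given next. For E2 in wild types 0 of 33 passed, 3 had an unadjusted p under 0.05 (8.28% of all genes did) and the median was -0.03. In nulls 0 passed, 2 had an unadjusted p under 0.05 (6.06% of all genes did) and the median was -0.07, or 0 without null placebo animal 1. The most separated in wild types were Thbs1 (thrombospondin, 1.11 ± 0.31, SE, limma, adjusted p = 0.281) and Gas6 (a vitamin K-dependent ligand related to protein S, 0.68 ± 0.20, adjusted p = 0.336). Thbs1 was dim, and its groups overlapped. It read -3.76, -3.01, -3.87, -3.94 and -3.25 in wild-type placebo and -1.39, -1.99, -2.63, -3.44 and -2.85 in wild-type E2 livers. Its highest value was that of wild-type E2 animal 1, whose array had the largest share of spots well above background. Gas6 read 4.36, 5.06, 4.54, 5.18 and 4.31 in wild-type placebo and 5.38, 5.29, 5.61, 5.27 and 5.3 in wild-type E2 livers, with no overlap (1.51% of all genes), and the difference did not pass. For null against wild type averaged over treatments 1 of 33 passed (0.696% of all genes): S100a10, whose product binds plasminogen and its activator on cell surfaces, was higher in nulls by 0.47 ± 0.10 (SE, adjusted p = 0.0359). It read 4.47, 4.07, 3.71, 3.7 and 3.91 in wild-type placebo, 4.02, 4.02, 4.43, 4.08 and 4.22 in wild-type E2, 4.64, 4.47, 4.37, 4.47 and 4.52 in null placebo and 4.75, 4.9, 4.26, 4.5 and 4.47 in null E2 livers, so that the genotypes overlapped within each treatment. Its call held in 13 of 33 alternatives, and it was lost on leaving out any of 15 of the 20 animals (adjusted p from 0.0504 to 0.0791 there).

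Of 30 regulators of liver clotting genes (30 of 30 measured), 1 passed for E2 in wild types (0.318% of all genes) and 0 in nulls (0.00455%). Cebpa, a transcription factor of hepatocytes with sites in several clotting genes, fell by 0.63 ± 0.12 on the log2 scale (SE, limma, adjusted p = 0.0204). It read 4.62, 4.56, 4.79, 4.78 and 4.98 in wild-type placebo and 3.78, 3.97, 4.21, 4.38 and 4.28 in wild-type E2 livers, without overlap. In nulls it read 4.28, 4.39, 4.5, 4.65 and 4.68 under placebo and 4.52, 4.47, 4.65, 4.54 and 4.27 under E2, a difference of -0.01 ± 0.12. The E2 effects on Cebpa differed by -0.61 ± 0.17 (adjusted p = 0.353). The call held in 22 of 33 alternatives and was lost without any of wild-type placebo animals 3, 4 and 5 or wild-type E2 animals 1 and 2 (adjusted p from 0.0614 to 0.0778). Among animals numbered 750 or above the difference was -0.46 (adjusted p = 0.364). Stat5b, which carries growth hormone signals, was higher by 0.44 ± 0.09 (SE, adjusted p = 0.0504) and passed in 10 of 33 alternatives. It read 3.53, 3.53, 3.18, 3.29 and 3.31 in wild-type placebo and 3.94, 3.83, 3.92, 3.72 and 3.64 in wild-type E2 livers, without overlap. Esr1 was the regulator that passed in each genotype comparison. Hnf4a, a master regulator of hepatocyte genes, had group means of 8.06, 8.06, 8.0 and 7.87. Of the 19 acute-phase genes 0 passed in any of the 6 contrasts. For E2 0 had an unadjusted p under 0.05 in wild types and 2 in nulls, against 8.28% and 6.06% of all genes. In nulls 16 of 19 lay below 0, with a median of -0.14, which rested on null placebo animal 1: without it 7 lay below 0, the median was 0.01 and 0 had an unadjusted p under 0.05. In wild types the smallest p values were those of Cp (-0.16 ± 0.12, adjusted p = 0.728) and Crp (-0.07 ± 0.13, adjusted p = 0.923).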

How the data were processed

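Liver RNA of 20 mice was hybridized to 1-colour Agilent arrays, 1 array per animal, on 4 slides scanned on the same day. Per the file headers, the authors' scanner files were made with Agilent Feature Extraction 10.10.1.1, and the processed intensity of a spot is background-subtracted and detrended. The deposited table of the authors holds log2 values, which track the log2 of each spot's median signal and were used as an alternative; the steps behind it are unstated, though the submitters' processing notes name limma.

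Each processed intensity was divided by the 75th percentile of its array (59305 gene-specific spots) and put on the log2 scale. Non-uniform spots were dropped, spots of a probe averaged, and a probe kept (30961 of 55681) where 4 or more of the 5 arrays of any group had it well above background. Per gene the brightest kept probe was used. Limma 3.58.1 (R 4.3.3) fitted 4 group means with 16 residual degrees of freedom, and p-values were adjusted over all 21998 genes by the Benjamini-Hochberg method, threshold 0.05. Correlations used deviations from group means and 100000 permutations within groups.

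Members with an adjusted p under 0.05, the 5 smallest p in each of 4 contrasts, and F2, F12, Fga, Fgb, Fgg, Serpinc1 and Plg were described animal by animal. The members, gene lists and tests were chosen with earlier results of these data known. Replicate numbers did not pair animals. Each replicate is 1 animal. Alternatives covered scaling, background, probe filters, blocks and single animals left out. The number of arrays limits the precision. The fit was tested on simulated data.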

Additional observations from a re-analysis of the deposited data

Results flagged for a closer look

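In groups of 5 animals, 10 of 124 tests (31 members in 4 groups) had 1 animal farther from the others than Dixon's 95% critical value of 0.71 allows; chance flags about 1 in 20 groups. In the wild-type placebo group, animal 4 was low for F11 at 3.53 and animal 5 was low for F12 at 7.13. In the null placebo group, animal 1 was high for F2 at 9.36, for F9 at 4.9 and for Cpb2 at 7.98. In the null E2 group, animal 1 was low for F3 at 0.24, animal 4 was high for Tfpi at -0.38, and animal 5 was high for F7 at 4.78 and low for Hrg at 7.71 and for Pzp at 8.78.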

How the results depend on the processing

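Over 33 alternatives per contrast (32 for the difference of the E2 effects), 0 members passed the adjusted threshold, except that 1 member (Serpinf2) passed for null against wild type averaged over treatments without wild-type placebo animal 5. Leaving out 1 animal thus gave 0 to 1 members passing there. With array median scaling the median difference of the members for E2 in wild types was -0.24 in place of -0.02, beside -0.22 over all genes. This scaling moved the all-gene median by over 0.1 in wild types and nulls (-0.12) and for null against wild type under E2 (0.11). It did so too for the difference of the E2 effects (-0.1 in place of 0.02), where 9 members lay above 0 in place of 18. The direction of Fgg and Serpinc1, with differences near 0 for E2 in wild types, flipped under several alternatives. The replicate block, a fit with the replicate number as a block, left 0 members passing in each contrast (smallest adjusted p = 0.109); same-numbered animals correlated at -0.16 to 0.24, and 11 of 30 pairs were above 0.1. It changed no member's call. Genes passing in all fell from 70 to 32 with array median scaling and to 41 in animals numbered 750 or above (E2, wild types), from 36 to 18 and 10 (difference), from 153 to 49 and 49 (genotype, averaged), from 102 to 39 and 35 (genotype, E2) and from 16 to 7 and 2 (genotype, placebo). Without a filter on dim probes 153 became 70 and 16 became 8, with slide as a fixed block 68 and 9, and with only the arrays compared 70 became 46 and 16 became 8. Leaving out 1 animal moved these counts both ways: 153 to between 77 (without wild-type E2 animal 5) and 273 (without wild-type placebo animal 5), 16 to between 6 (without wild-type placebo animal 3) and 46 (without null placebo animal 3), and 102 to between 67 (without wild-type E2 animal 5 or null E2 animal 2) and 120. For E2 in nulls, 1 became 0 to 2. The cause was not tested. The alternatives for the correlations of F8 with endothelial markers and of Saa1 with Fgb, and leaving null placebo animal 1 out of the gene lists, were chosen after seeing the data.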

Other observations

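Of the marker lists for other cell types, 2 held genes that passed the test, the erythroid list (5 genes) and the stellate list (7 genes). Of all genes 0.0727% passed for genotype under placebo, 0.464% under E2 and 0.696% averaged. Alas2, the first enzyme of heme synthesis in red cell precursors, was higher in nulls by 0.90 ± 0.12 under placebo (SE, limma, adjusted p = 0.00249) and by 0.58 ± 0.08 averaged (adjusted p = 0.00172). The erythroid list differed between genotypes mainly under placebo. Without null placebo animal 1 its median difference was 0.36 under placebo, with 1 of 5 passing. Under E2 it was -0.11, with 0 of 5 passing. Ngfr, on the stellate cell list, fell in nulls by 1.24 ± 0.21 under E2 on the log2 scale (SE, adjusted p = 0.00668).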
